A study of Mus musculus with 24 samples.

Results

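The heat shock chaperones of muscle were followed through 10 genes, Hspa1a, Hspa1b, Hspa8, Hspa5, Hsph1, Dnajb1, Hspb1, Hspb6, Hspb7 and Cryab, in gastrocnemius, a mostly fast calf muscle, of 24 mice. The genes were found by name, through the gene symbol that the array gives a probe or the current symbol of the probe's transcript accession, and no measured value was used to choose probes. This gave 17 of the 41174 probes of the array. Of these, 15 probes of 9 genes were among the 15958 probes bright enough to be tested, which named 10891 genes in all. Hspa1b had no probe on the array, and 2 probes were too dim, 1 of 4 for Hspa1a and 1 that the file calls Hspb1 but places on chromosome 13, which was not well above background in any group.

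The animals were male C57BL/6N mice that were given, from 3 months of age and for 8 weeks, a corn-oil-based high-fat diet with 35% lipid by weight (cHF). In the cHF+F group, 15% of the dietary lipid was exchanged for a concentrate of the n-3 fatty acids DHA (46%) and EPA (14%). In the cHF+ROSI group, rosiglitazone, an agonist of the nuclear receptor PPARγ, was added at 10 mg/kg diet. All mice, controls included, went without food for 10 hours of the light phase and then ate Chow overnight, so that the muscle was taken in the re-fed state and away from the high-fat diets. Each group held 8 mice with 1 two-colour array per mouse, on which RNA of the mouse (Cy5) was set against a common pool of muscle RNA (Cy3). A log2 ratio of 0 therefore means the level of the pool, apart from any dye bias of the probe, since no dyes were swapped. The pool also held RNA of mice given a higher dose of rosiglitazone. The comparisons answer whether either addition to the high-fat diet changed the chaperone transcripts of re-fed muscle, and how far the transcripts moved together from mouse to mouse.

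Chaperones hold unfolded proteins until they reach their folded form. The HSP70 proteins do this by cycles of ATP hydrolysis that J-domain proteins such as DNAJB1 start and exchange factors such as HSPH1 reset, whereas small heat shock proteins bind unfolding proteins without ATP. The heat shock factor HSF1 switches on the inducible members through heat shock elements, arrays of short GAA repeats, and the unfolded protein response of the endoplasmic reticulum (ER) switches on HSPA5. Skeletal muscle holds much of the small members, which sit at the Z-disc and on the filaments of the sarcomere.

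The starts of 8 of the 10 genes were in RefSeq's promoter table of the mouse build GRCm38.p6, which gives 250 bases before to 50 bases after each start. Hspa8 and Cryab were not matched. Heat shock element cores, searched as GAANNTTC and TTCNNGAA, each of which reads the same on both strands, were found in a window of Hspa1a, Hspa1b, Hsph1, Hspb1 and Hspb6. One or the other core was held by 15.1% of the 32851 promoters of the table. The ER stress element, searched on both strands as CCAAT and CCACG with 9 free bases between them, was held by 39 of all promoters (0.119%), among them that of Hspa5. The windows shown are those that held these letters in Hspa1a, Hsph1, Hspb1 and Hspa5, with that of Hspb6 left out, and that of Hspa1b, which was not measured, stands beside its near copy in Hspa1a. Capitals mark the letters fixed in a searched motif.
Hspa1a (chr17:34972107-34972406, minus strand): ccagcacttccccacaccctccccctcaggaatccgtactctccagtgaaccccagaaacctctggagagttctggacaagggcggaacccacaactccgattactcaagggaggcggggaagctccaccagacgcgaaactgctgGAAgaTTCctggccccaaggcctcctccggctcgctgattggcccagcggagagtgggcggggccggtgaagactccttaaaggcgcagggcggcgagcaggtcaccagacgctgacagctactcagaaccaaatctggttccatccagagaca
Hspa1b (chr17:34959189-34959488, minus strand): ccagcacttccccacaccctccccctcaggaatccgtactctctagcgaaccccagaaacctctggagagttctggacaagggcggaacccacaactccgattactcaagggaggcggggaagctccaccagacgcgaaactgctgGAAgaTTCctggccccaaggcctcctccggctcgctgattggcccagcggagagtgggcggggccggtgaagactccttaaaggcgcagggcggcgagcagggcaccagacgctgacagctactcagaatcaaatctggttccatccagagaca
Hsph1 (chr5:149636266-149636565, minus strand): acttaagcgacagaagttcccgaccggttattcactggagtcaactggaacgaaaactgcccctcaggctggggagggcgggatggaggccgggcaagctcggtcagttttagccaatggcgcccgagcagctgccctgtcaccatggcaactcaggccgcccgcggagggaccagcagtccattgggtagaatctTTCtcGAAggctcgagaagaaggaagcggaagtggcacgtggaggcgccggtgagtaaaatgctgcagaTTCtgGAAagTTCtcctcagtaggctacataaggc
Hspb1 (chr5:135887669-135887968, plus strand): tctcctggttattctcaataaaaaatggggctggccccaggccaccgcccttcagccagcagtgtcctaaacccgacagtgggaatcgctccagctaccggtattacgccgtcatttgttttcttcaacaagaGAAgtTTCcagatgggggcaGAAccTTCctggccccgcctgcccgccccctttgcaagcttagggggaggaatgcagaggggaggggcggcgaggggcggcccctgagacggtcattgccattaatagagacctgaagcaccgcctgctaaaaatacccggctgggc
Hspa5 (chr2:34771840-34772139, plus strand): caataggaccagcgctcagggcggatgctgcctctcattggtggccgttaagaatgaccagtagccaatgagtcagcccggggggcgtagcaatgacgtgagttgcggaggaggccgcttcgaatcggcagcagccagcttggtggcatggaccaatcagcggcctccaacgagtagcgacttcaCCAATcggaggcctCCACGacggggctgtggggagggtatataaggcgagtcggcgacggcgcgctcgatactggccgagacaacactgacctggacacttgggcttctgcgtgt
The windows of Hspa1a and Hspa1b carried the same letter at 296 of 300 positions, with the first base of the core at position −104 in both, counting the start as 0. Hspb1 had 2 cores, at −117 and −97, and the ER stress element of Hspa5 began at −65. Hsph1 held TTCNNGAA at −54 and at 15, and GAANNTTC at 20, which overlaps the core at 15 and shares its GAA. Counted from the other Hsph1 start, whose window is not shown, the same cores lay at −33, 36 and 41. Dnajb1 and Hspb7 held none of these letters in their windows. A match is only a match of letters.

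Hspa1a, the stress-inducible cytosolic HSP70, spanned a wider range between mice than any other of the 9 genes. The log2 ratio of its brightest probe (chr17:34577877-34577936 in mm8, minus strand) ran from −1.43 to 2.07 over the 24 mice, an 11.3-fold span. In cHF mice the lowest value was −0.96, the median −0.66 and the highest 2.07. In cHF+F mice these were −1.43, −0.42 and 1.65, and in cHF+ROSI mice −0.83, 0.66 and 1.48. The groups overlapped throughout, and 6 of 8 cHF+ROSI mice had a log2 ratio above 0 as compared with 2 of 8 in each of the other groups. The scatter of Hspa1a around the diet means was 0.92 (SD), more than for 99.7% of all tested probes, of which the median was 0.15. All 3 kept Hspa1a probes followed each other, with Pearson correlations between 0.94 and 0.98 over the 24 mice once diet means were removed. The brightest probe overlaps another of them in position (chr17:34577907-34577966), so that this pair is not independent. Hspa1b encodes a nearly identical protein, and whether the Hspa1a probes also bind its transcript was not tested.

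**Figure D1:**
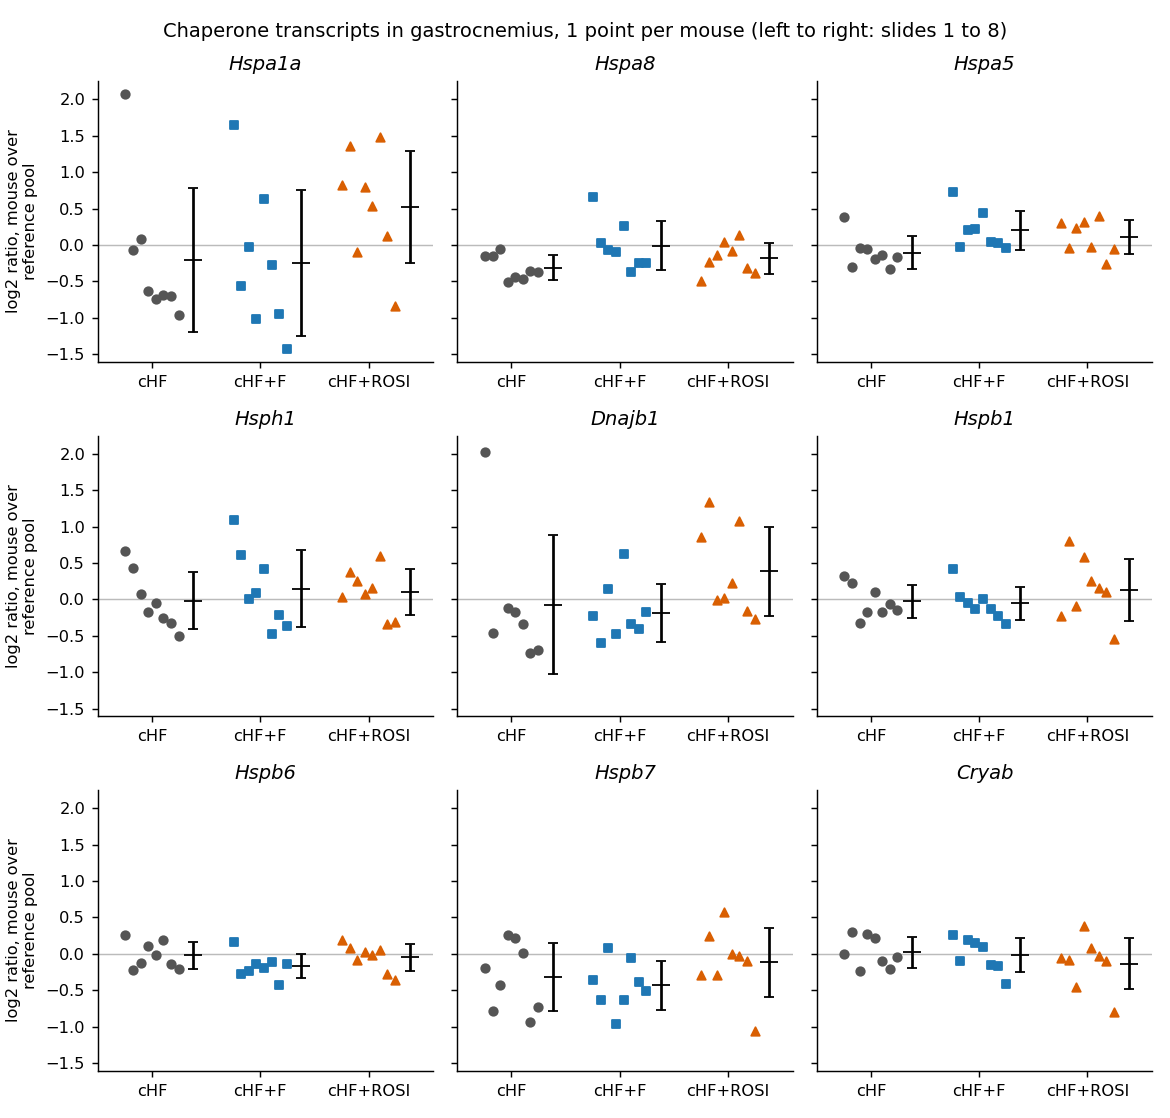
Log2 ratio of mouse RNA over the reference pool (y axis) for the 9 chaperone genes in the 3 diet groups (x axis), 1 point per mouse in order of slide, with the group mean and SD as black bars. The Hspa1a and Dnajb1 points spread most, and the cHF mouse of slide 1 stands at 2.07 and 2.02.

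Dnajb1, the J-domain partner that hands unfolded proteins to HSP70, was the second most variable, with a scatter of 0.68. Its brightest probe had no usable spot on the cHF array of slide 3, so 7 cHF mice remained. These gave −0.74 as the lowest, −0.34 as the median and 2.02 as the highest value. The cHF+F mice gave −0.60, −0.28 and 0.62, and the cHF+ROSI mice −0.27, 0.12 and 1.33. A single cHF mouse was thus high, beside 3 cHF+ROSI mice at 0.86, 1.33 and 1.08, and the ranges overlapped. The dimmer Dnajb1 probe followed the brighter one (r = 0.90 over 23 mice) on a smaller scale, with a span of 2.03-fold against 6.79-fold.

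The other members varied less. Hsph1, the HSP110 exchange factor of HSP70 (named Hsp110 in the files), had a scatter of 0.42 and spanned 3.01-fold. Hspa8, the constitutive cytosolic HSP70, and Hspa5, the HSP70 of the ER also known as BiP, had scatters of 0.25 and 0.24. Among the small heat shock proteins the scatter was 0.43 for Hspb7, a heart and muscle form, 0.31 for Hspb1 (HSP25), 0.27 for Cryab (αB-crystallin) and 0.18 for Hspb6 (HSP20). All of the 9 genes but Hspb6 scattered more than 90% of tested probes. The second Cryab probe did not follow the first. The bright probe (chr9:50508565-50508624, mm8) and the dimmer one at lower coordinates (chr9:50505406-50505465) had r = −0.33 over the 24 mice, and statements on Cryab refer to the bright one.

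Each of the 8 slides carried 1 array of each diet, so the slide could be set against the diet. Hspa1a was high in all 3 mice of slide 1, at 2.07 (cHF), 1.65 (cHF+F) and 0.83 (cHF+ROSI). It was low in all 3 mice of slide 8, at −0.96, −1.43 and −0.83 in the same order. Slides accounted for 65.1% of the Hspa1a scatter around the diet means, as compared with a median of 53.5% over all tested probes. In a limma model with the diets, the 8 slides differed for 5 of the 9 genes at an adjusted p under 0.05, beside 30% of all tested probes. These were Hspa5 (adjusted p = 0.00568), Hspb6 (0.0057), Hspa1a (0.0147), Hsph1 (0.0176) and Cryab (0.0318).

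Hspa5 averaged 0.40 above the diet means on slide 1 and 0.25 below them on slide 7. Hsph1 went from 0.52 above on slide 1 to 0.47 below on slide 8. For Hspb6 the means were 0.28 above on slide 1 and 0.20 below on slide 7, and for Cryab 0.32 above on slide 4 and 0.38 below on slide 8. Slides did not pass the test for Hspb1 (adjusted p = 0.128), Dnajb1 (0.266), Hspb7 (0.386) and Hspa8 (0.691). Slides 1 to 3 were dimmer, with 30.4% to 55.1% of spots well above background in Cy5 as compared with 50.3% to 61.3% on slides 4 to 8, leaving aside the cHF+ROSI array of slide 4 at 91.1%. With slides 4 to 8 alone no chaperone gene and 0.094% of probes passed, and with the scanner software's processed signals none passed beside 6.96% of probes. Without the cHF mouse of slide 1 the count was 3, since Hspa1a (adjusted p = 0.0706) and Hsph1 (0.0519) no longer passed. The labels do not say what the mice of a slide shared, and the slide cannot be told apart from anything that was handled with it.

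**Figure D2:**
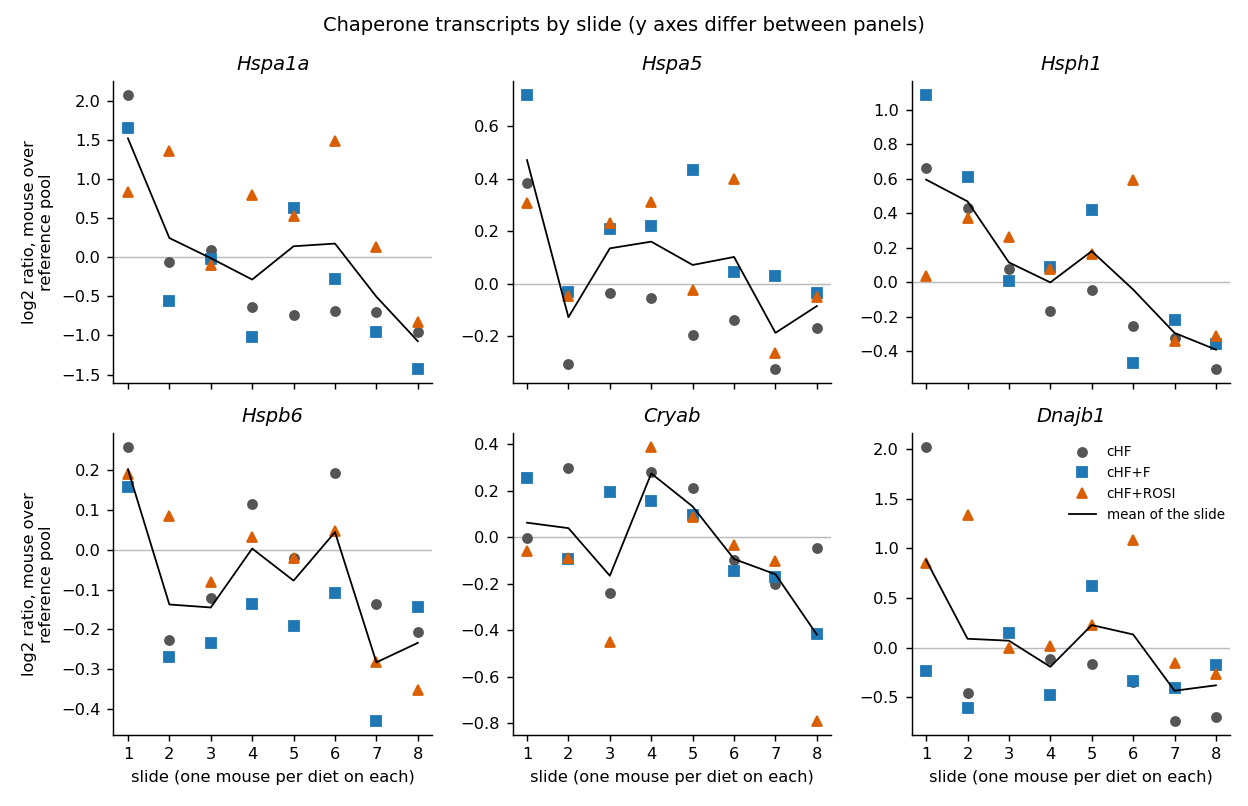
Log2 ratio of 6 chaperone genes (y axis, scale differing between panels) on each of the 8 slides (x axis), with 1 point per mouse and diet and a line through the slide means. Hspa1a falls from 2.07, 1.65 and 0.83 on slide 1 to −0.96, −1.43 and −0.83 on slide 8 in the 3 diets.

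Against this scatter, no chaperone gene passed an adjusted p of 0.05 with the n-3 fatty acids (0 of 9 in cHF+F versus cHF, and 0% of the 15958 probes). Without adjustment 2 of 9 genes had a p under 0.05, Hspa8 and Hspa5, beside 6.86% of all probes. Both were higher (log2 change 0.30), as were 2.85% of all probes at this p. All 9 changes lay between −0.15 and 0.30, with 3 genes higher and 6 lower and a median of −0.04, as compared with 0.00 over all probes, of which 50.4% were higher. The cHF+F and cHF groups overlapped for each of the 9 genes, and did not overlap for 0.0689% of all probes.

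Hspa5 ran from −0.32 through a median of −0.15 to 0.39 in cHF mice, and from −0.04 through 0.13 to 0.72 in cHF+F mice. Every cHF+F mouse lay above the cHF mean, and the cHF+F mouse was the higher of the pair on 8 of 8 slides. The ranges still overlapped, and the highest cHF value was that of slide 1. The log2 change was 0.30 (SE 0.113, 95% interval 0.07 to 0.53), a ratio of 1.23, with an adjusted p of 0.568 in the limma fit. With slide as a block the same change had an unadjusted p of 0.000392 and an adjusted p of 0.121, while 12.1% of all probes had an unadjusted p under 0.05 in that fit. Without the cHF+F mouse of slide 1 the change was 0.23, and without the cHF mouse of slide 1 it was 0.37. Over all settings tried it ran from 0.23 to 0.61, the highest with Cy5 alone. In Cy3 alone, where the RNA is the pool, the same probe differed by 0.26 (limma, unadjusted p = 0.297).

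Hspa8 ran from −0.51 through −0.36 to −0.05 in cHF mice and from −0.37 through −0.09 to 0.66 in cHF+F mice. The highest cHF value was that of slide 3, on whose cHF array this probe was dimmest in both channels. The cHF+F mouse was the higher on 7 of 8 slides, and its highest value again came from slide 1. The log2 change was 0.30 (SE 0.117, 95% interval 0.06 to 0.54), with an adjusted p of 0.600 and, with slide as a block, of 0.309. The second Hspa8 probe gave 0.29 (adjusted p = 0.719), higher on 5 of 8 slides. Without the cHF+F mouse of slide 1 the change of the brighter probe was 0.21. Over all settings tried it ran from 0.21 to 0.78, the highest again with Cy5 alone, where the unadjusted p was 0.183.

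Markers of other cell types and states were set beside these changes. In cHF+F versus cHF mice, 10 of 11 slow fibre, 13 of 14 immediate early and 8 of 8 endothelial marker genes were lower, while 50.4% of all probes were higher. Of these markers 5, 7 and 4 had an unadjusted p under 0.05 and none an adjusted one, beside 4% of all probes lower at this unadjusted p. With slide as a block 1 of them was called, the endothelial tight junction gene Cldn5, which fell by 0.65 on the log2 scale (limma adjusted p = 0.0146 with the block and 0.121 without it). The endothelial score ran from −0.20 to 0.25 in cHF and from −0.35 to −0.02 in cHF+F mice. All 9 macrophage markers were also lower, 2 of them at an unadjusted p under 0.05, with a score from −0.20 to 0.27 in cHF and from −0.58 to 0.18 in cHF+F mice. Of the fast fibre, adipocyte, blood, fibroblast and liver markers 1 gene, of the fibroblast list, had an unadjusted p under 0.05. In these lists 8 of 11 fast fibre, 4 of 6 fibroblast and all 5 measured liver markers were higher, the liver markers by a median of 0.40. Lower were 6 of 8 adipocyte markers and both measured blood markers. The fast and slow fibre markers were well above background on every array. The part of these cell types in the changes of Hspa5 and Hspa8 was not tested.

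The inducible genes had wider intervals. In cHF+F versus cHF mice Hspa1a differed by −0.05 (95% interval −0.90 to 0.81), Dnajb1 by −0.11 (−0.76 to 0.54) and Hsph1 by 0.16 (−0.23 to 0.56). These intervals leave room for changes far larger than those of Hspa5 and Hspa8. The direction for Hspa1a and Dnajb1 turned without the cHF mouse of slide 1, to 0.28 and 0.24. Among the small heat shock proteins Hspb6 was 0.15 lower (−0.33 to 0.03) and was lower on 7 of 8 slides, with an adjusted p of 0.824 and, with slide as a block, of 0.254. Hspb1, Hspb7 and Cryab differed by −0.03, −0.11 and −0.04.

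With rosiglitazone, again no chaperone gene passed an adjusted p of 0.05 (0 of 9 in cHF+ROSI versus cHF, and 0% of probes), and no gene had an unadjusted p under 0.05, beside 4.7% of all probes. 7 of the 9 genes were higher, as compared with 45.3% of all probes, with a median change of 0.16 against −0.01 over all probes. The groups overlapped for each of the 9 genes and did not overlap for 0.0188% of all probes. Many pairs of the 9 genes moved together between mice, so that these are not 9 separate observations.

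Hspa1a was 0.72 higher on the log2 scale in cHF+ROSI mice (95% interval −0.13 to 1.58, adjusted p = 0.996), with 7 of 8 mice above the cHF mean and 6 of 8 slides higher. The cHF mean itself was raised by the mouse of slide 1. Without that mouse, but with the cHF+ROSI mouse of slide 1 (0.83) kept, the difference was 1.05 (adjusted p = 0.563). Without slides 1 to 3 it was 1.16 (adjusted p = 0.382). Dnajb1 was 0.46 higher (SE 0.315), higher on 6 of the 7 slides with both values, and 0.81 higher without the same cHF mouse (adjusted p = 0.555). Over all settings tried the change ran from 0.53 to 1.16 for Hspa1a and from 0.32 to 0.83 for Dnajb1. Neither gene passed under any of these settings. Hspa5 was 0.21 higher (−0.02 to 0.45) and the higher on 7 of 8 slides. With slide as a block Hspa1a and Hspa5 had unadjusted p under 0.05, 2 of 9 genes beside 9.55% of probes, with adjusted p of 0.439 and 0.360.

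No marker gene of another cell type passed an adjusted p of 0.05 between cHF+ROSI and cHF mice, with or without slide as a block. Both measured blood markers were lower, 1 of them at an unadjusted p under 0.05, and their score ran from −0.41 to 0.96 in cHF and from −0.63 to −0.04 in cHF+ROSI mice. All 5 measured liver markers were higher, 2 at an unadjusted p under 0.05, with a score from −2.30 to −0.52 in cHF and from −2.32 to 1.40 in cHF+ROSI mice. All 8 endothelial markers were lower, 3 at an unadjusted p under 0.05. Lower without reaching that p were 10 of 11 fast fibre, 8 of 11 slow fibre, 8 of 9 macrophage and 5 of 6 fibroblast markers. Of the immediate early markers 8 were higher and 6 lower, and of the adipocyte markers 4 and 4. Over all probes 45.3% were higher, and 1.69% were higher and 3.01% lower at an unadjusted p under 0.05. The part of these cell types in the changes of Hspa1a, Dnajb1 and Hspa5 was not tested.

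Hspb7 ran from −0.93 through −0.31 to 0.26 in cHF mice and from −1.05 through −0.06 to 0.58 in cHF+ROSI mice. The difference was 0.21 (−0.20 to 0.61). The cHF+ROSI mouse of slide 8 gave the lowest value of the whole series for Hspb7, Cryab (−0.79) and Hspb1 (−0.54), and its slow fibre score, the mean log2 ratio of 11 slow fibre genes, was also the lowest of all mice. The part of fibre makeup in these values was not tested, and in bulk muscle fewer cells of a type and less RNA per cell cannot be told apart. Hspb1, Hspb6 and Cryab differed by 0.16, −0.03 and −0.16.

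Set against each other, cHF+F and cHF+ROSI mice differed for 0 of 9 genes at an adjusted p under 0.05 (0% of probes) and for 0 of 9 at an unadjusted p under 0.05, beside 6.67% of probes. 4 genes were higher and 5 lower in cHF+F mice, as compared with 54.2% of probes higher, and the groups overlapped for all 9 genes but not for 0.0376% of probes. The widest differences were those of the inducible pair. Hspa1a was lower in cHF+F by 0.77 (−1.63 to 0.08, adjusted p = 0.774) and Dnajb1 was lower by 0.57 (−1.19 to 0.06, adjusted p = 0.773). With slide as a block, Hspa1a (adjusted p = 0.271) and Hspb6 (0.347) had unadjusted p under 0.05, beside 13.1% of probes. No marker gene was called here, with or without the block. In cHF+F mice 13 of 14 immediate early markers were lower, 6 of them at an unadjusted p under 0.05. Lower were also 10 of 11 slow fibre, 8 of 9 macrophage, 6 of 8 endothelial and all 5 liver markers. All 11 fast fibre, both blood and 4 of 6 fibroblast markers were higher, and the adipocyte markers were split 4 to 4. Their part in these differences was not tested. The 3 comparisons share arrays, and their values stand side by side only.

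**Figure D3:**
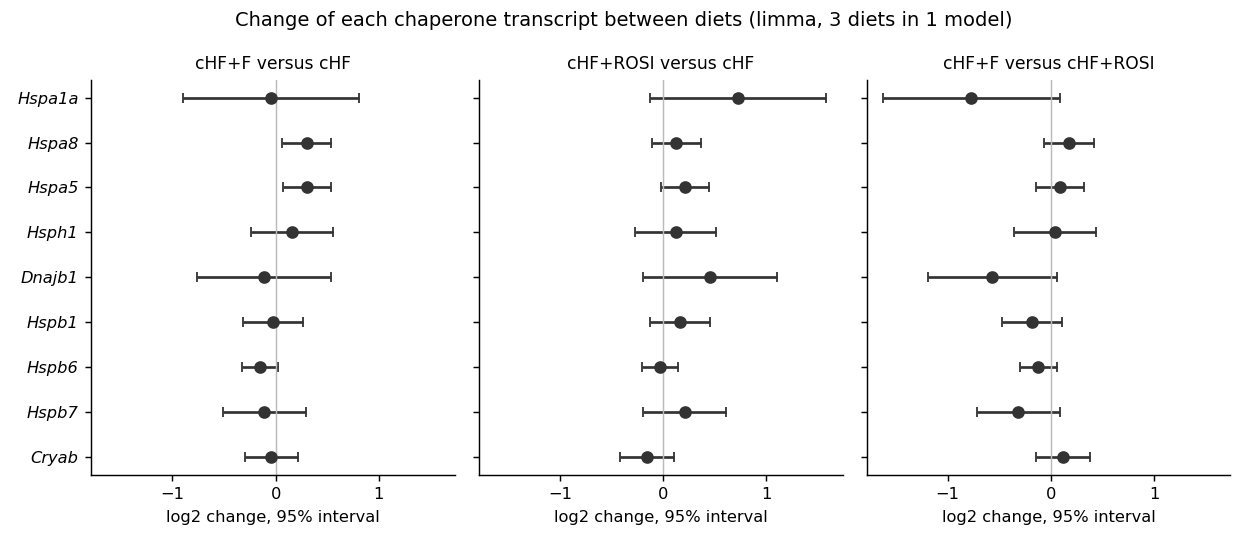
Log2 change of each chaperone gene (x axis) with its 95% interval in the 3 comparisons. The intervals of Hspa8 and Hspa5 in cHF+F versus cHF leave out 0 before adjustment over all probes, all others include it, and those of Hspa1a and Dnajb1 are the widest.

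Whereas no chaperone passed the test between diets, many pairs of the genes went up and down together from mouse to mouse. With diet means removed, all 36 pairs of the 9 genes had a positive correlation, with a median of 0.48 and a range from 0.01 to 0.81. Over all pairs of tested probes without a missing value the median was 0.02, with the 5th and 95th percentiles at −0.49 and 0.53. A correlation over 0.5 was reached by 17 of 36 chaperone pairs (47.2%) as compared with 6.12% of all pairs. The median of the chaperone pairs was 0.39 within cHF, 0.63 within cHF+F and 0.55 within cHF+ROSI mice. In these groups 30, 33 and 36 of the 36 pairs were positive, and the lowest r was −0.47, −0.26 and 0.004. When slide means were removed as well, the median fell to 0.34, 28 of 36 pairs remained positive and 11 were over 0.5 (30.6%, beside 5.56% of all pairs). All points share the slides and the pool, and the pairs share genes. The chaperone genes also scattered more between mice than most tested probes, and pairs of probes of like scatter were not compared.

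The highest values were those of some pairs of the cytosolic HSP70 system. Other pairs of it were lower, with r = 0.24 for Hspa8 and Dnajb1 and 0.51 for Hsph1 and Dnajb1. These were −0.04 and 0.15 with slide means removed as well. Hspa1a had r = 0.75 to Hspa5 of the ER and 0.68 to Hspa8. Hspa8 and Hsph1 had r = 0.81 and rho = 0.80 over 24 mice (permutation p = 2e-05 for each, adjusted over the 36 pairs 0.00054 and 0.00072), and r was 0.71 without the 2 mice farthest from the Hspa8 median and 0.88 with slide means removed. Within cHF, cHF+F and cHF+ROSI mice it was 0.68, 0.94 and 0.65. Hspa1a and Hsph1 had r = 0.78 and rho = 0.69 (permutation p = 3e-05 and 0.00048, adjusted 0.00054 and 0.00864), with 0.63 without 2 mice and 0.58 without slide means. Hspa1a and Dnajb1 had r = 0.76 and rho = 0.63 over 23 mice (permutation p = 0.00084 and 0.00115, adjusted 0.00378 and 0.0087), 0.76 without 2 mice and 0.59 without slide means.

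The cHF+F mouse of slide 1 broke the last relation. Its Hspa1a stood at 1.65, Hsph1 at 1.09, Hspa5 at 0.72 and Hspa8 at 0.66, each the highest or second highest of all mice, whereas its Dnajb1 was −0.23. In the cHF mouse of the same slide both Hspa1a (2.07) and Dnajb1 (2.02) were high. Within groups the correlation of Hspa1a with Dnajb1 was 0.94 in cHF, 0.43 in cHF+F and 0.86 in cHF+ROSI mice.

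Pairs among the small heat shock proteins reached lower values. Hspb1 and Cryab, whose products can share one oligomer, had r = 0.68 and rho = 0.67 (permutation p = 0.00147 and 0.00072, adjusted 0.00481 and 0.00864), 0.67 without 2 mice and 0.57 without slide means. Hspb7 and Cryab had r = 0.55 (permutation p = 0.0102, adjusted 0.022) and rho = 0.41 (permutation p = 0.0597, adjusted 0.102), but r was 0.25 without the cHF+ROSI mice of slides 4 and 8, on which the relation rested. The cHF+ROSI array of slide 4 is the one with 91.1% of spots well above background in Cy5. It gave the highest value of all arrays for both Hspb7 (0.58) and Cryab (0.39). Hspb7 was nearly unrelated to Hspa8 (r = 0.01) and Hsph1 (r = 0.06). Hspa1a had r = 0.67 to Hspb1, 0.46 to Cryab and 0.31 to Hspb7.

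**Figure D4:**
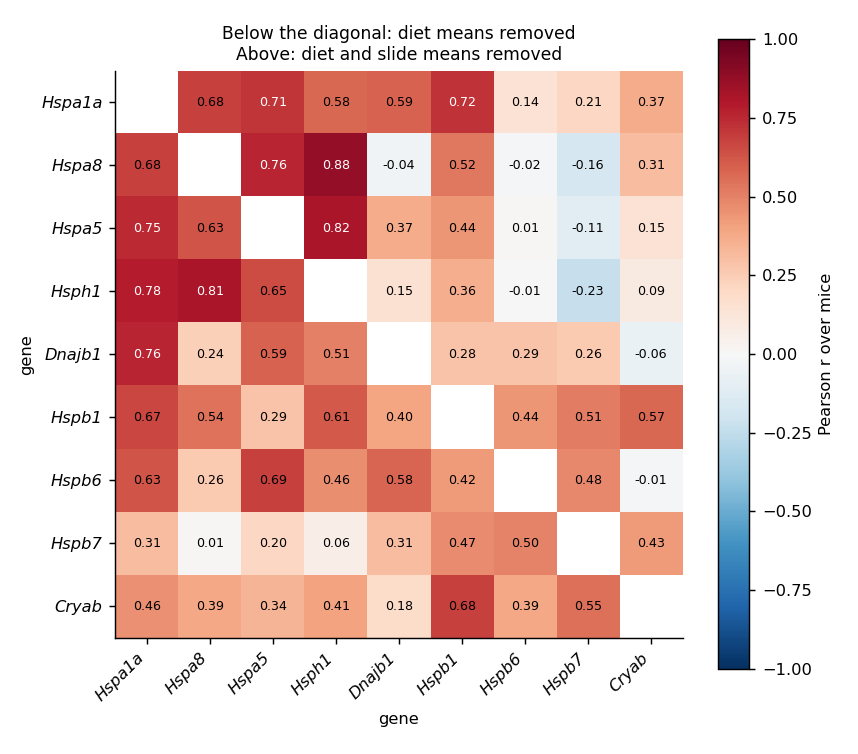
Pearson correlation over mice for each pair of the 9 chaperone genes (both axes), below the diagonal with diet means removed and above it with diet and slide means removed, the colour running from −1 to 1. Hspa8 and Hsph1 give 0.81 and 0.88, and Hspb7 with Hsph1 gives 0.06 and −0.23.

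Among all genes with a complete set of values, those most like each chaperone over the mice, as a description by Pearson correlation with diet means removed, included other chaperones or folding enzymes for Hspa1a, Hspa8, Hsph1, Hspa5 and Dnajb1. For Hspa1a they were Hsp90aa1, the inducible cytosolic HSP90 (r = 0.88), Dnaja1, a J-domain protein (0.86), and Naxd (0.85). Hsp90aa1 also led for Hsph1 (0.93), before Nfil3 (0.92) and Ppp1r3c (0.90), and came second for Hspa8 (0.85), between LOC641192 (0.89) and Klhl25 (0.84). Hspa5 was most like Pdia6, a disulfide isomerase of the ER (0.90), followed by Thy1 (0.90) and Thbd (0.88). For Dnajb1 they were Csrnp1 (0.82), Hspa1a (0.76) and Litaf (0.75).

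The small heat shock proteins had other neighbours in their first 3 places. Further down, Hspb1 held place 5 for Cryab, and Cryab and Hspa1a held places 11 and 12 for Hspb1. With slide means removed as well, these were places 112, 186 and 23. Hspb1 was most like Klhl30, Tubb2a and Klhl40 (0.80, 0.79 and 0.79), and Hspb6 like D930015E06Rik, Yars2 and Ndufaf4 (0.83, 0.81 and 0.80). For Hspb7 they were Lmcd1, Myh3 and Enah (0.83, 0.76 and 0.74), and for Cryab Ankrd2, Ttc9 and Cadm4 (0.74, 0.72 and 0.71). With slide means removed as well, Pdia6 stayed first for Hspa5 (0.91), Csrnp1 for Dnajb1 (0.86), Lmcd1 for Hspb7 (0.88) and Ankrd2 for Cryab (0.87). First places changed to Naxd for Hspa1a (0.80), Ahsa1, which speeds the HSP90 cycle, for Hspa8 (0.91), Cdkn2b for Hsph1 (0.94), Cmya1 for Hspb1 (0.79) and Ilrun for Hspb6 (0.83). For Hspa1a and Dnajb1 the first 3 places then held no chaperone, being Naxd, Nle1 and Hsdl2 for Hspa1a and Csrnp1, LOC673378 and Syde1 for Dnajb1. Chaperones, cochaperones or folding enzymes stayed among the first 3 for Hspa8, Hspa5 and Hsph1, Dnaja1 among them for Hspa5 (0.87) and Hsph1 (0.91).

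Immediate early genes such as Fos and Egr1, which respond within minutes to stimulation and to handling of tissue, were set beside the chaperones because their levels also varied. Their score, the mean log2 ratio of 14 genes, ran from −0.19 to 0.50 in cHF, from −0.44 to −0.05 in cHF+F and from −0.25 to 0.53 in cHF+ROSI mice. Over 27 relations of the 9 genes with this score, the slow fibre score and the share of bright spots, only that of Dnajb1 with the immediate early score had an adjusted permutation p under 0.05 for both coefficients. It had r = 0.71 and rho = 0.65 (permutation p = 0.00163 and 0.0021, adjusted 0.044 and 0.0431), 0.59 without 2 mice and 0.71 with slide means removed. It was 0.84 within cHF+ROSI but 0.10 within cHF+F mice, and 0.37 on slides 4 to 8. For Hspa1a and the same score r was 0.41 (permutation p = 0.0519, adjusted 0.254) and rho was 0.37 (permutation p = 0.0872, adjusted 0.316). Hspa5 and the slow fibre score had rho = 0.60 (permutation p = 0.00319, adjusted 0.0431) with r = 0.49 (permutation p = 0.0195, adjusted 0.225), and 0.46 without 2 mice. On slides 4 to 8 r with this score was positive for all 9 genes, from 0.39 for Hspa8 to 0.72 for Hspa1a. Over all slides it was 0.16 for Hspa8 and 0.36 for Hspa1a. It went from 0.39 over all slides to 0.70 on slides 4 to 8 for Dnajb1 and from 0.39 to 0.66 for Cryab. Slides 4 to 8 include the cHF+ROSI mouse of slide 8, which had the lowest score. Over all slides, without that mouse and the cHF+F mouse of slide 2, r was 0.21 for Hspa1a and 0.10 for Hspa8. It was then 0.30 for Dnajb1, 0.09 for Cryab and −0.26 for Hspb1. With slide means removed r was 0.23 for Hspa1a, −0.03 for Hspa8, 0.43 for Dnajb1 and 0.30 for Cryab.

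For the share of bright spots r lay between −0.24 and 0.39, and the lowest adjusted permutation p was 0.27. On slides 4 to 8 r ran from −0.07 for Dnajb1 to 0.66 for Hspb1, with 0.59 for Hspb7 and 0.57 for Cryab. These slides include the cHF+ROSI array of slide 4, with 91.1% of spots bright. Over all slides, without that array and the cHF array of slide 3, r was −0.09 for Hspb1, 0.18 for Hspb7 and 0.03 for Cryab. With slide means removed it was 0.54, 0.48 and 0.32 in the same order. The part of handling, fibre makeup and array brightness in the chaperone levels was not tested beyond these values.

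**Figure D5:**
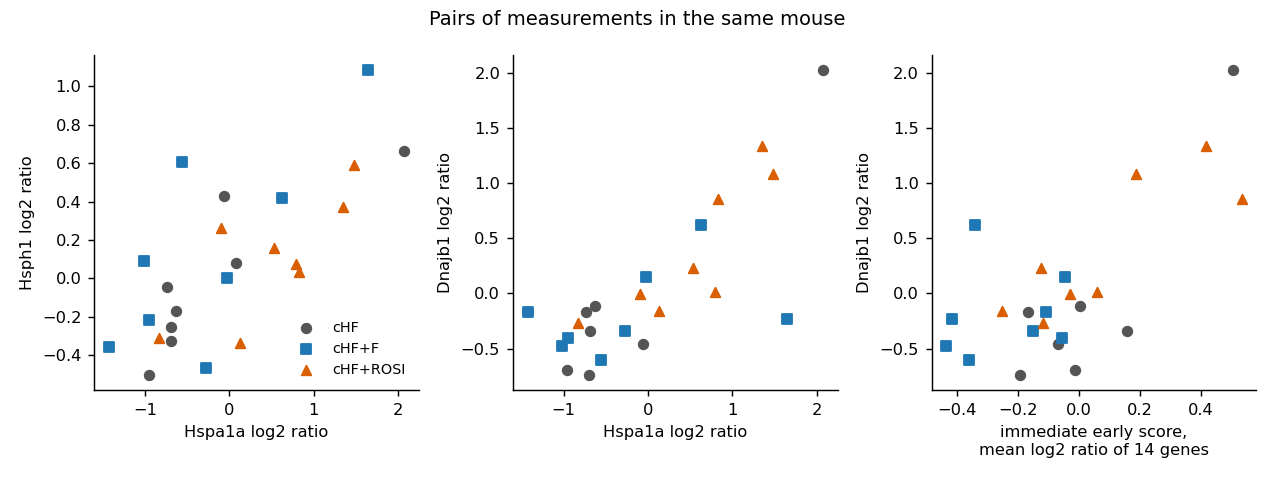
Each point is 1 mouse, with log2 ratios of Hspa1a and Hsph1 (left), Hspa1a and Dnajb1 (middle) and the immediate early score and Dnajb1 (right) on the axes. The cHF+F mouse of slide 1 has Hspa1a at 1.65 and Hsph1 at 1.09 but Dnajb1 at −0.23.

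Of 81 further chaperone and cochaperone genes, 77 were measured, and none changed between diets at an adjusted p under 0.05. In cHF+F versus cHF, 2 of 77 were higher and 3 lower at an unadjusted p under 0.05, beside 2.85% and 4% of all probes, with a median change of 0.03. In cHF+ROSI versus cHF, 6 were higher and 3 lower, beside 1.69% and 3.01% of probes, with a median of 0.07. In cHF+F versus cHF+ROSI, 4 were higher and 6 lower, beside 4.02% and 2.65% of probes, with a median of −0.02.

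Among 12 genes of HSP90 and its cochaperones, 8 were higher and 4 lower in cHF+F than in cHF mice. Hsp90ab1, the constitutive HSP90, differed by 0.10 and Unc45b, the myosin chaperone of muscle, by 0.13. Fkbp5, a glucocorticoid-responsive cochaperone, had the smallest p, with a difference of 0.40 (adjusted p = 0.818). In cHF+ROSI versus cHF the smallest p was that of Cdc37, which loads kinases onto HSP90 (−0.15, adjusted p = 0.996). Hsp90aa1 differed by 0.21 in cHF+F and in cHF+ROSI as compared with cHF mice, with an SE of 0.267 in both.

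Of 5 other small heat shock proteins, Hspb8, the partner of the BAG3 pathway of muscle, was 0.26 higher in cHF+F than in cHF mice (SE 0.0844, adjusted p = 0.473). Hspb2 differed by 0.03. In the ER set of 18 genes, 11 were higher and 7 lower in cHF+F mice, and 15 higher and 3 lower in cHF+ROSI mice, with medians of 0.08 and 0.09. Sil1, the exchange factor of HSPA5, was 0.13 lower in cHF+F mice (adjusted p = 0.553), opposite in sign to Hspa5. Herpud1 differed by −0.06, and Ddit3, which encodes the stress factor CHOP, was 0.23 higher in cHF+ROSI mice (adjusted p = 0.996).

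The 8 other HSP70 and HSP110 genes had medians of −0.06 in cHF+F and 0.03 in cHF+ROSI as compared with cHF mice. Hspa9, the mitochondrial HSP70, was 0.20 higher in cHF+F than in cHF+ROSI mice (adjusted p = 0.434), and Hspd1, which encodes HSP60, was 0.19 higher in the same comparison (adjusted p = 0.600). Hspa2 was 0.18 lower in cHF+F and 0.22 lower in cHF+ROSI as compared with cHF mice, and Hspa14 differed by −0.05 and −0.06. Of 13 J-domain genes none had an unadjusted p under 0.05 against cHF mice, with Dnaja3 and Dnajb2 at 0.06 and 0.08 in cHF+F mice.

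The 8 TRiC genes differed by −0.03 to 0.14 between cHF+F and cHF mice, with Cct2 at −0.03 and Cct7 at 0.03. The 8 genes of BAG and other HSP70 cochaperones differed by −0.07 to 0.08, with Bag3 at −0.01 and Stub1 at 0.06. Hsf1, the master regulator of the heat shock response, differed by 0.11 in cHF+F and 0.14 in cHF+ROSI mice (adjusted p = 0.831 and 0.996), and Hsf4 by −0.12 and −0.09.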

How the data were processed

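Gastrocnemius RNA of 24 mice was measured on 24 two-colour arrays. The scanner files deposited by the authors hold spot and background intensity per channel on a linear scale (Feature Extraction 10.5.1.1 per the file headers, probe positions in build mm8). The authors also deposited a table of normalized log2 values, used as an alternative for cHF and cHF+F, of which 8 columns named for a combined diet were not used. Median spot intensity was background-corrected (normexp, offset 50) and normalized within each array (loess, span 0.3) with limma 3.58.1 in R 4.3.3. Flagged spots were left out, replicate spots averaged, and probes kept with at least 4 usable arrays per group and a mean signal of at least 2 times background in both channels. A gene is shown by its brightest kept probe, and symbols came from RefSeq by accession (12577 kept probes) or from the files (2544). No dyes were swapped, so dye bias is common to all arrays, and a diet always took the same place on a slide.

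Groups came from the labels and were compared with limma, 3 diets in 1 model, with Benjamini-Hochberg adjustment over all 15958 kept probes, after tests on simulated data. Replicate numbers equalled slide numbers on 24 of 24 arrays per the file headers. Same-slide mice deviated together in 18 of 24 pairs (r over 0.1, median 0.25, other slides −0.05), so slide was also fitted as a block. Correlation p-values came from 100000 permutations of the mice within diets (two-sided). Promoters were read from RefSeq's table. The number of arrays limits the precision, and counting depth does not apply.

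The members and gene lists were chosen with earlier results of these data known. Named beside the members were, per list, the 2 brightest genes and that with the smallest p, and the 3 genes most like each member. The slide test, slides 4 to 8 alone and the fit with flagged spots kept were added after values had been seen. Alternatives were mean spot signals, no background correction, processed signals, Cy5 alone, another span, median centring, other filters, array weights, the methods' t-test, the deposited log2 table, the mean of a gene's probes and leaving out each array.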

Additional observations from a re-analysis of the deposited data

Results flagged for a closer look

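One cHF mouse, that of slide 1, stood far above the other mice of its group for 3 of the 9 genes, with Hspa1a at 2.07, Hspa5 at 0.39 and Dnajb1 at 2.02. Its gap to the next mouse exceeded the range that Dixon's test at 95% allows. Of 27 groups of values (9 genes in 3 diets) these 3 were so marked, and chance alone marks about 1 in 20 groups. The 3 values come from 1 mouse, and its spots were not flagged by the scanner software. Other results without this mouse are given beside the comparisons of Hspa1a, Dnajb1 and Hspa5.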

How the results depend on the processing

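None of the 27 changes of the 9 genes in the 3 comparisons had an adjusted p under 0.05 in any alternative, and 372 of 387 values under other processing and 631 of 648 with 1 array left out kept their direction. The probes called in cHF+F versus cHF, 0 of 15958, became 2 with mean spot signals, 3 without the filter on dim probes, 12 with array weights and 0 to 2 with 1 array left out. They were 0 to 2 in cHF+F versus cHF+ROSI with 1 array left out. The methods' t-test passed 1265 (cHF+F against cHF), 755 (cHF+ROSI against cHF) and 938 probes (cHF+F against cHF+ROSI) before adjustment and 0 after Benjamini-Hochberg adjustment. With median centring in place of loess, 87, 82 and 95 probes passed before adjustment, in the same order.

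With the replicate number, which is the slide, as a block, 6 probes were called in cHF+F versus cHF and none in the other comparisons, with Cldn5 but no chaperone gene among the 6, and the median pair correlation went from 0.48 to 0.34. That median was 0.32 with Cy5 alone and 0.66 with median centring. The count of chaperone genes that differed between slides, 5, was 0 with processed signals, 0 on slides 4 to 8 and 3 to 6 with 1 array left out.

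Changes near 0 turned. The Hspa1a change in cHF+F versus cHF was 0.29 with Cy5 alone, 0.022 with median centring, 0.0035 with array weights, 0.078 in the deposited table and 0.13 on slides 4 to 8, and −0.32 to 0.28 with 1 array left out. Dnajb1 was 0.10 with array weights, 0.26 on slides 4 to 8 and −0.23 to 0.24 with 1 array left out. Hspb1 was −0.093 to 0.023 with 1 array left out, and Cryab was −0.079 to 0.017, and 0.025 as the mean of its probes. In cHF+ROSI versus cHF, Hspb6 was −0.064 to 0.014 with 1 array left out. Between cHF+F and cHF+ROSI, Hspa8 was −0.20 with Cy5 alone and −0.020 on slides 4 to 8. Hsph1 was −0.026 with median centring, −0.20 with array weights, −0.14 on slides 4 to 8 and −0.094 to 0.13 with 1 array left out. Cryab was −0.043 with median centring and −0.0062 on slides 4 to 8. The cause was not tested. The precision is limited by the number of arrays, and the kept chaperone probes were at least 2 times above background in both channels.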

Other observations

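The intensities of the brightest Hspa8 probe, background-corrected and quantile-normalized between arrays, scattered by 1.24 in Cy5 (SD of log2, diet means removed). In Cy3, where the RNA is the same pool on every array, they scattered by 1.23, whereas the ratio scattered by 0.25. For the brightest Hspa1a probe the Cy3 scatter was 0.82, as compared with 0.14 for another Hspa1a probe, whose ratio scattered by 0.99. On the cHF array of slide 3 the Cy3 value of the brightest Hspa1a probe was 6.50, the lowest of all arrays. The Cy3 values of the brightest Hspa5, Hspa8 and Hsph1 probes were also lowest on that array, at 8.79, 9.03 and 8.82. For Dnajb1 the scatter was 0.82 in Cy5 and 0.26 in Cy3. In Cy3 alone none of the 9 genes differed between diets at an adjusted p under 0.05 in limma. The estimates there were not small beside the ratio changes. As compared with cHF, Hspa8 differed in Cy3 by 0.40 in cHF+F and by 0.74 in cHF+ROSI, and Hspa5 by 0.26 in both. Hspa1a and Hsph1 were also higher in both, whereas Hspb1, Hspb6, Hspb7 and Cryab were lower in both.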
